A study of Homo sapiens with 12 samples.

Results

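The genes described here are 10 components of the Notch pathway: the receptors NOTCH1, NOTCH2 and NOTCH3, the ligands JAG1, JAG2 and DLL1, the DNA-binding factor RBPJ, and the basic helix-loop-helix factors HES1, HES6 and HEY1. They were chosen by name, and 8 of the 10 were among the 13951 genes of the expression tables. JAG1 and DLL1 were not analysed here. RNA was sequenced from CWR22Rv1 cells, a human prostate cancer line that expresses the androgen receptor, 48 h after seeding, in 4 groups of 3 libraries. Control cells carried Cas9 without a guide RNA. LV-MEIS1 cells expressed the homeobox factor MEIS1 from a lentivirus, and whether they also carry Cas9 is not stated in the sources used here. HOXB13ko cells were made with Cas9 and a guide against HOXB13, the prostate homeobox factor, as several clones recombined into 1 pool, and HOXB13ko-LV-MEIS1 cells were that pool infected with the MEIS1 virus. The study asked whether effects of MEIS1 need HOXB13. Each edited group is therefore 1 cell pool, and nothing states that the 3 libraries came from separately derived cells, so p-values measure the spread between these libraries, which may be technical.

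In Notch signalling a ligand on one cell (JAG or DLL) binds a receptor on its neighbour, the receptor is cut by ADAM proteases and then by gamma-secretase, and the freed intracellular domain enters the nucleus. There it joins RBPJ and a MAML coactivator and switches on genes such as HES1 and HEY1, whose products repress proneural genes. HES6 differs from its relatives in that it can oppose HES1 and favour neuronal differentiation. An mRNA level of a receptor does not show how much of it was cut, and cleaved receptor was not measured.

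All values are CPM, read counts scaled to a common library total, and fold changes are on the log2(CPM + 0.5) scale. A gene was called when limma's treat test, which asks for a change above 1.5-fold, gave a Benjamini-Hochberg adjusted p under 0.05 over all 13951 genes. The eBayes test of limma against no change was run as an alternative and is named where used. MEIS1 was at 4.24, 4.45 and 4.05 CPM in Control, at 49.6, 46.8 and 45.8 CPM in LV-MEIS1, at 3.65, 3.59 and 3.42 CPM in HOXB13ko, and at 30.1, 29.8 and 29.3 CPM in HOXB13ko-LV-MEIS1. HOXB13 mRNA was at 185, 215 and 187 CPM in Control, at 152, 150 and 151 CPM in LV-MEIS1, at 347, 326 and 307 CPM in the libraries labelled HOXB13ko, and at 326, 361 and 375 CPM in HOXB13ko-LV-MEIS1, so the transcript was not lower where the label says knockout. A transcript level does not measure the protein. Per the study's methods the clones were checked by western blot, and protein was not analysed here. All 10 luminal prostate markers examined were listed, against 1 of 6 basal markers, 4 of 6 stromal markers and 0 of 5 markers of endothelium and blood.

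Some of these markers moved in the same comparisons as the genes below. KLK2, 1 of the 10 luminal markers, was called lower in LV-MEIS1 against Control (-1.40 ± 0.064) and higher in HOXB13ko-LV-MEIS1 against LV-MEIS1 (0.89 ± 0.064) by limma's treat test. It does not stand for all luminal markers. The 4 stromal markers summed to 34.9 to 44.7 CPM over all libraries, with 1 called higher and 1 lower in the first of these comparisons and 2 higher and 1 lower in the second. The 1 basal marker, ITGA6, was at 2.89 to 3.32 CPM in LV-MEIS1 and 8.43 to 8.65 CPM in HOXB13ko-LV-MEIS1 and was called higher there. The part of these markers in the results below was not tested. Sequencing depth is unknown, because the values did not resolve into whole reads.

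Length-corrected levels placed HES1 highest of the 8 genes. In Control its mean was 50.5 CPM per kilobase of the canonical GENCODE transcript, ahead of JAG2 at 19.2, RBPJ at 17.9 and NOTCH3 at 17.8. The lower values were 10.5 for HES6, 8.43 for NOTCH1, 2.63 for NOTCH2 and 2.45 for HEY1. NOTCH3 mRNA was thus the most abundant receptor transcript per length in Control, and it held that place in the other 3 groups, at 17.2 in LV-MEIS1, 13.6 in the libraries labelled HOXB13ko and 12.6 in HOXB13ko-LV-MEIS1.

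On GRCh38, with GENCODE gene bounds, NOTCH1 lies at chr9:136494433-136546048, NOTCH2 at chr1:119911553-120100779, NOTCH3 at chr19:15159038-15200995 and JAG2 at chr14:105140982-105168824. RBPJ lies at chr4:26163455-26435131, HES1 at chr3:194136148-194138732 and HES6 at chr2:238238267-238240662.

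The sequence before the start sites of HES1 and NOTCH3 is shown because HES1 is the classical RBPJ target and its level moved less than those of HES6 and HEY1, while NOTCH3 moved with the HOXB13ko label. The 250 bases are from RefSeq (GRCh38.p14), written 5′ to 3′ on the gene's strand. HES1 is on the plus strand at chr3:194135898-194136147 and NOTCH3 on the minus strand at chr19:15200996-15201245. Capitals mark the RBPJ core TGGGAA.
HES1: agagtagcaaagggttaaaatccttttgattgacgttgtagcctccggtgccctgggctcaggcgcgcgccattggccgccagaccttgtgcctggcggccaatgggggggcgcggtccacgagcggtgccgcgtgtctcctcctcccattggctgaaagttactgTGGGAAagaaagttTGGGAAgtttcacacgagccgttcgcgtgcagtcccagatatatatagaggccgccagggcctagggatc
NOTCH3: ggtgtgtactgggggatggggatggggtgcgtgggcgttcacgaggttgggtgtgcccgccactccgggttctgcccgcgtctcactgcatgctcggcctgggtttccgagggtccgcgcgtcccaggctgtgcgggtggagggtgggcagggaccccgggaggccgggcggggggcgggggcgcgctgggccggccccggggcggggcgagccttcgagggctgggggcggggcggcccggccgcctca
The HES1 window held 2 copies of the core, beginning 84 and 70 bases before the start site and both on the gene's strand, and the NOTCH3 window held none. Searched on both strands of 300-base windows, from 250 bases before to 50 after the start, TGGGAA was in 24% of 35116 RefSeq promoter windows and at least 2 copies were in 3.8%. Promoter windows were found for 7 of the 8 genes, as 11 windows, 5 of them of RBPJ and in part overlapping. The RBPJ core was in 2 of the 11 (1 each of HES1 and RBPJ). The N-box CACNAG, bound by HES proteins, was in 5 of the 11 and in 38% of all windows. A MEIS core, TGACAG, was in 4 of the 11 (windows of RBPJ and JAG2) and in 15.8% of all windows, and a HOXB13 core, TTTATNG, was in 3 of the 11 (windows of RBPJ and HES6) and in 9.73%. Of the windows with a MEIS core, 2 of RBPJ overlap and hold the same match, which is thus counted in both. These matches describe the letters of the windows and no binding was measured here.

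Among the receptors, NOTCH1 was lower and NOTCH2 higher in LV-MEIS1 than in Control, and NOTCH3 was lower in the libraries labelled HOXB13ko. NOTCH1 was at 79.4, 87.5 and 75.1 CPM in Control and at 49.0, 55.8 and 52.5 CPM in LV-MEIS1. The 2 groups did not overlap. The difference was -0.61 ± 0.074 (log2, SE; 95% interval -0.77 to -0.46), with an adjusted p of 1.3e-05 in limma's eBayes test and of 1 in limma's treat test. In the libraries labelled HOXB13ko NOTCH1 was at 72.9, 78.3 and 70.9 CPM, overlapping Control (-0.12 ± 0.074, eBayes adjusted p = 0.22 in limma). In HOXB13ko-LV-MEIS1 it was at 62.1, 59.9 and 69.9 CPM, all below the HOXB13ko libraries, although the difference of -0.21 ± 0.074 did not pass (limma eBayes adjusted p = 0.22).

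NOTCH2 had the opposite order. It was at 32.8, 30.4 and 27.0 CPM in Control and at 38.9, 46.0 and 43.5 CPM in LV-MEIS1, a difference of 0.50 ± 0.092 (limma eBayes adjusted p = 0.00053, treat adjusted p = 1). The LV-MEIS1 libraries lay above every other library for NOTCH2. The HOXB13ko libraries were at 29.3, 34.4 and 31.8 CPM and the HOXB13ko-LV-MEIS1 libraries at 33.5, 29.9 and 27.8 CPM, which overlapped each other and Control. NOTCH2NL, a human paralogue that shares the start of NOTCH2, was also higher in LV-MEIS1, at 22.7, 32.6 and 22.7 CPM against 19.95, 17.78 and 15.04 CPM in Control (0.54 ± 0.16, limma eBayes adjusted p = 0.012). Reads from the shared sequence can be divided between both genes, so the NOTCH2 values are uncertain to that extent.

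NOTCH3 was at 154, 169 and 141 CPM in Control and at 154, 141 and 153 CPM in LV-MEIS1, and these groups overlapped (-0.045 ± 0.081, limma eBayes adjusted p = 0.68). It was at 129, 122 and 104 CPM in the libraries labelled HOXB13ko and at 110, 103 and 116 CPM in HOXB13ko-LV-MEIS1. All 6 libraries with the HOXB13ko label were below all 6 others. The difference from Control was -0.39 ± 0.081 (limma eBayes adjusted p = 0.0027) and that between both MEIS1 groups was -0.45 ± 0.081 (limma eBayes adjusted p = 0.00038).

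**Figure D1:**
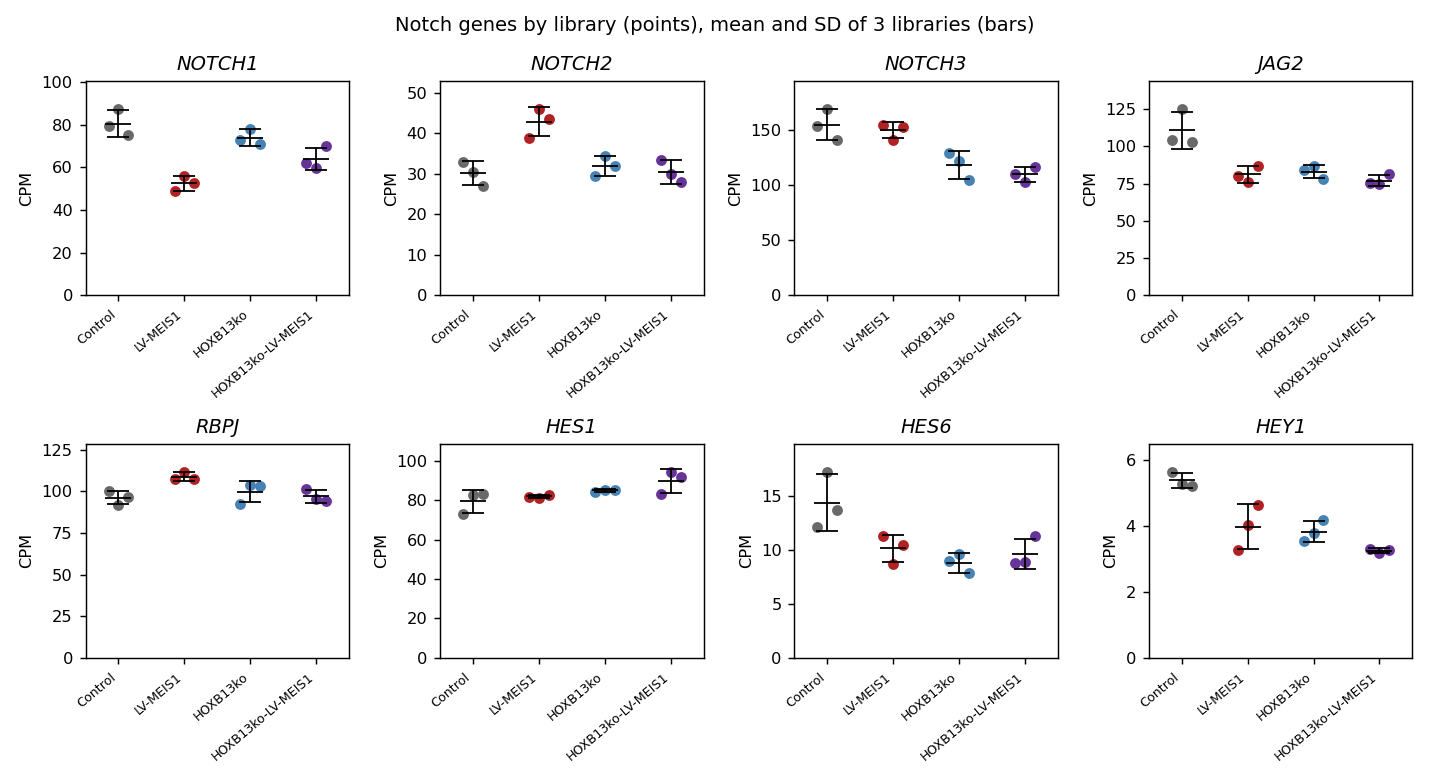
Level of each Notch gene in CPM (y axis, from 0) in the 4 groups (x axis), with a point per library and bars for the mean and SD of 3 libraries. NOTCH1 was lowest and NOTCH2 highest in LV-MEIS1, NOTCH3 was lower in both groups with the HOXB13ko label, and HES1 stayed between 72.9 and 94.6 CPM.

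The ratio of 2 receptors within a library does not depend on how libraries were scaled. The NOTCH1 to NOTCH2 ratio of CPM values was 2.42, 2.88 and 2.78 in Control, 1.26, 1.21 and 1.21 in LV-MEIS1, 2.49, 2.28 and 2.23 in the libraries labelled HOXB13ko, and 1.85, 2.00 and 2.51 in HOXB13ko-LV-MEIS1. The LV-MEIS1 libraries stood below all others. The NOTCH1 to NOTCH3 ratio was 0.523 ± 0.0088 (SD, n = 3) in Control, 0.353 ± 0.040 in LV-MEIS1, 0.630 ± 0.058 in HOXB13ko and 0.583 ± 0.018 in HOXB13ko-LV-MEIS1. These ratios were chosen after the values were seen and were not tested.

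**Figure D2:**
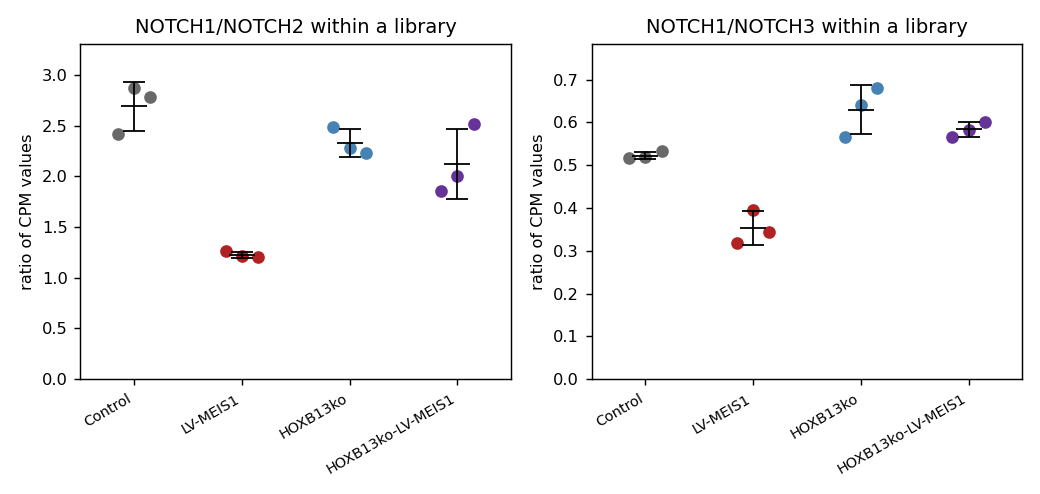
Ratio of CPM values of NOTCH1 to NOTCH2 (left) and NOTCH1 to NOTCH3 (right) within each library (y axis, from 0) by group, with bars for the mean and SD of 3 libraries. Both ratios were lowest in LV-MEIS1, with a NOTCH1 to NOTCH2 mean of 1.23 against 2.69 in Control.

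JAG2, the 1 listed ligand of the Notch genes described here, was highest in Control. DLL3, DLL4, DLK2 and CNTN1, from the list of other receptors and ligands, were counted with the other pathway genes below. It was at 104, 125 and 103 CPM in Control, 80.0, 76.2 and 87.0 CPM in LV-MEIS1, 84.2, 87.0 and 78.0 CPM in the libraries labelled HOXB13ko, and 75.1, 74.5 and 81.3 CPM in HOXB13ko-LV-MEIS1. Each Control library exceeded each of the 9 others, and those 3 groups overlapped one another. The difference from Control was -0.44 ± 0.077 in LV-MEIS1 (limma eBayes adjusted p = 0.00034) and -0.41 ± 0.077 in HOXB13ko (limma eBayes adjusted p = 0.0013).

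Of the nuclear effectors, HES1 varied little. Its values were 72.9, 82.5 and 83.3 CPM in Control, 82.0, 81.0 and 83.0 CPM in LV-MEIS1, 84.3, 85.4 and 85.5 CPM in the libraries labelled HOXB13ko, and 83.2, 94.6 and 91.9 CPM in HOXB13ko-LV-MEIS1. From Control to LV-MEIS1 the difference was 0.046 ± 0.060, with a 95% interval from -0.083 to 0.17, which lies inside a 1.5-fold change in either direction. HES1 passed the eBayes test in none of the comparisons, and came nearest between both MEIS1 groups (0.13 ± 0.060, limma eBayes adjusted p = 0.087). There, without Control replicate 1 the adjusted p was 0.046, and without HOXB13ko-LV-MEIS1 replicate 1 it was 0.026.

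RBPJ, through which all the receptors act, was at 100.1, 92.1 and 96.6 CPM in Control, 107, 112 and 107 CPM in LV-MEIS1, 92.6, 104 and 103 CPM in the libraries labelled HOXB13ko, and 102, 95.3 and 94.4 CPM in HOXB13ko-LV-MEIS1. The LV-MEIS1 libraries were above the rest by a small margin (0.18 ± 0.056 against Control, limma eBayes adjusted p = 0.018). The call was lost without Control replicate 2 (0.073) or LV-MEIS1 replicate 2 (limma eBayes adjusted p = 0.070).

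HES6 and HEY1 were highest in Control. HES6 was at 12.1, 17.2 and 13.7 CPM in Control, 11.2, 8.72 and 10.4 CPM in LV-MEIS1, 8.96, 9.63 and 7.81 CPM in the libraries labelled HOXB13ko, and 8.81, 8.83 and 11.2 CPM in HOXB13ko-LV-MEIS1. The difference from Control was -0.47 ± 0.14 in LV-MEIS1 (limma eBayes adjusted p = 0.013) and -0.66 ± 0.14 in HOXB13ko (limma eBayes adjusted p = 0.0027). The first was lost without Control replicate 2 (limma eBayes adjusted p = 0.069) or LV-MEIS1 replicate 2 (0.063).

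HEY1 was at 5.64, 5.27 and 5.20 CPM in Control, 3.27, 4.03 and 4.63 CPM in LV-MEIS1, 3.54, 3.77 and 4.17 CPM in the libraries labelled HOXB13ko, and 3.30, 3.17 and 3.27 CPM in HOXB13ko-LV-MEIS1. Every Control library was above all others. The difference from Control was -0.40 ± 0.13 in LV-MEIS1 (limma eBayes adjusted p = 0.018) and -0.44 ± 0.13 in HOXB13ko (limma eBayes adjusted p = 0.016). The LV-MEIS1 call was lost without Control replicate 1 (limma eBayes adjusted p = 0.051) or LV-MEIS1 replicate 1 (0.085), and the HOXB13ko call without HOXB13ko replicate 1 (0.0502).

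**Figure D3:**
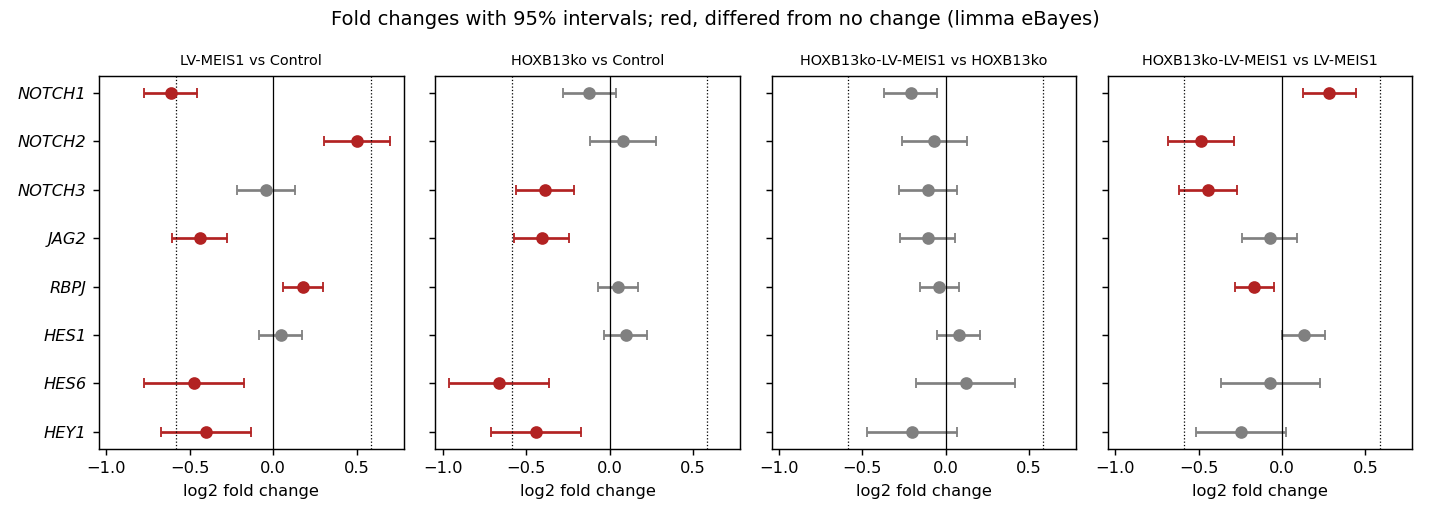
Log2 fold change (x axis) of each Notch gene in 4 comparisons, with 95% intervals, a solid line at no change and dotted lines at 1.5-fold. Red points passed limma's eBayes test against no change, and none passed limma's treat test above 1.5-fold.

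Set against all genes, limma's treat test called 0 of the 8 in every pairwise comparison, and 0 of the 8 had an unadjusted treat p under 0.05. The share of all genes called by treat was 3.99% in LV-MEIS1 against Control, 1.41% for the HOXB13ko label in the absence of the virus, 0.00717% for the virus within the HOXB13ko pool and 6.71% between both MEIS1 groups. The share with an unadjusted treat p under 0.05 was 6.49%, 2.71%, 0.0645% and 9.66% in that order, so 0 of 8 does not set these genes apart.

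By limma's eBayes test 2 of the 8 were higher and 4 lower in LV-MEIS1 than in Control, where 44.5% of all genes passed (23.2% higher and 21.3% lower). For the HOXB13ko label without the virus 0 were higher and 4 lower, where 32.9% passed (16.5% and 16.4%). For the virus within the HOXB13ko pool 0 passed, as did 0.0502% of all genes (0.0215% and 0.0287%). Between both MEIS1 groups 1 was higher and 3 lower with the HOXB13ko label, where 50.1% passed (24% and 26.1%). The median log2 fold change of the 8 genes was -0.22, -0.25, -0.086 and -0.12 in the same order, beside 0.0073, -0.0017, 0.0059 and -0.020 over all genes.

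Counted by libraries alone, 2 of the 8 were higher and 4 lower without overlap in LV-MEIS1 than in Control, where 51.3% of all genes did not overlap (26.3% higher and 25.1% lower). For the HOXB13ko label without the virus 1 was higher and 4 lower, beside 44.9% of all genes (21.8% and 23.1%). Within the HOXB13ko pool 0 were higher and 2 lower with the virus, beside 21.1% (10.6% in each direction). Between both MEIS1 groups 2 were higher and 3 lower, beside 58.3% (28.2% and 30.1%). Comparisons that have a group in common share its libraries.

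The difference of LV-MEIS1 from Control minus that of HOXB13ko-LV-MEIS1 from HOXB13ko was tested as an interaction. LV-MEIS1 and Control may differ in more than MEIS1, as the Cas9 status of LV-MEIS1 is not stated. By treat 0 of the 8 genes passed and 0 had an unadjusted treat p under 0.05, beside 2.93% and 6.16% of all genes. By eBayes 2 were higher and 3 lower, beside 34.2% of all genes (18% higher and 16.2% lower). NOTCH1 (-0.40 ± 0.10, limma eBayes adjusted p = 0.0093) and NOTCH2 (0.57 ± 0.13, limma eBayes adjusted p = 0.0043) kept their eBayes call without any 1 of the 12 libraries. JAG2, HES6 and RBPJ lost theirs without 5, 4 and 9 of the 12 in turn. MEIS1 mRNA itself was lower in HOXB13ko-LV-MEIS1 than in LV-MEIS1 (-0.66 ± 0.075, limma eBayes adjusted p = 4.3e-06), and its part in these differences was not tested.

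Of 77 other pathway genes, 62 were listed. Limma's treat test called 2 higher and 1 lower in LV-MEIS1 against Control, beside 1.75% and 2.24% of all genes. CNTN1, a neural adhesion protein described as a Notch ligand, was at 0.705, 0.699 and 0.372 CPM in Control and at 14.9, 14.3 and 15.4 CPM in LV-MEIS1 (3.83 ± 0.13, limma treat adjusted p = 2e-10). DTX3, a ubiquitin ligase of the Deltex family, was at 27.9, 27.0 and 25.6 CPM in Control and 53.3, 47.2 and 53.8 CPM in LV-MEIS1 (0.93 ± 0.076, limma treat adjusted p = 0.0076). HES2, a relative of HES1, was at 6.87, 7.967 and 8.003 CPM in Control and 2.52, 2.35 and 1.82 CPM in LV-MEIS1 (-1.58 ± 0.15, limma treat adjusted p = 0.00023).
These 3 genes did not overlap between the groups, and neither did 51.3% of all genes. In the interaction the same test called 2 higher and 1 lower, beside 1.31% and 1.62% of all genes, and these were again CNTN1 (3.62 ± 0.19), DTX3 (0.98 ± 0.11) and HES2 (-1.62 ± 0.21) (limma treat adjusted p = 5.9e-08, 0.043 and 0.0054).

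In HOXB13ko against Control 2 other pathway genes were called higher and 1 lower by limma's treat test, beside 0.652% and 0.76% of all genes. CNTN1 rose to 3.56, 3.84 and 3.64 CPM (1.95 ± 0.13, limma treat adjusted p = 9.9e-06). AAK1, an endocytic kinase that acts on NUMB, rose from 121, 100.1 and 114 CPM to 227, 257 and 282 CPM (1.19 ± 0.084, limma treat adjusted p = 0.00038). HES7, the oscillating factor of somite formation, fell from 22.2, 24.5 and 21.9 CPM to 9.24, 10.1 and 7.99 CPM (-1.29 ± 0.12, limma treat adjusted p = 0.0018). With the virus in the HOXB13ko pool 0 of the 62 passed treat or eBayes, and 0 had an unadjusted treat p under 0.05. The shares of all genes were 0.00717%, 0.0502% and 0.0645% in that order. In HOXB13ko-LV-MEIS1 against LV-MEIS1 5 were called higher and 3 lower, beside 3.29% and 3.42% of all genes. The highest were TLE1, a corepressor of HES proteins (1.49 ± 0.14), CDKN1A, a cell cycle inhibitor (1.24 ± 0.062), and AAK1 (1.22 ± 0.084) (limma treat adjusted p = 0.00016, 1.5e-06 and 4.4e-05). The lowest were CNTN1 (-1.67 ± 0.13), DTX3 (-0.97 ± 0.076) and HES7 (-0.95 ± 0.12) (limma treat adjusted p = 1.9e-05, 0.0017 and 0.049).

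The neuronal list was chosen with the fall of such genes in these data known, so its direction is no independent evidence. Of 96 on the list 51 were listed, and limma's treat test called 1 higher and 17 lower in LV-MEIS1 against Control, beside 1.75% and 2.24% of all genes, with a median log2 fold change of -0.29. Of the 12 proneural and neuroendocrine factors 1 was called higher and 1 lower (median 0.028), and of the 39 vesicle, granule and cytoskeleton genes 0 were called higher and 16 lower (median -0.36). NMNAT2, an axon maintenance enzyme, was at 44.3, 45.0 and 41.1 CPM in Control and at 0.592, 0.910 and 1.30 CPM in LV-MEIS1 (-4.97 ± 0.16, limma treat adjusted p = 6.2e-11). SEZ6, a neuronal membrane protein, went from 12.5, 15.7 and 11.2 CPM to 0.166, 0.141 and 0.333 CPM (limma treat adjusted p = 2.7e-09). CPLX2, which controls vesicle fusion, was at 8.08, 8.43 and 9.64 CPM in Control and at 0.0553 CPM in LV-MEIS1 replicate 1, with both other LV-MEIS1 libraries listed at 0 (limma treat adjusted p = 8.7e-10). In LV-MEIS1 all 3 were at or below 1.30 CPM. SOX2, a neural and stem cell factor, was the 1 called higher, at 5.53, 5.67 and 6.99 CPM against 1.10, 1.82 and 1.27 CPM (1.802 ± 0.15, limma treat adjusted p = 3.9e-05).

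In HOXB13ko against Control 3 neuronal genes were called higher and 12 lower, beside 0.652% and 0.76% of all genes, with a median of -0.13. The proneural and neuroendocrine factors had 1 call in each direction (median 0.095), and the other list had 2 higher and 11 lower (median -0.26). CHRNB2, a nicotinic receptor subunit, fell most (-2.80 ± 0.22), followed by NMNAT2 (-2.60 ± 0.16) and SEZ6 (-2.55 ± 0.19) (limma treat adjusted p = 1.1e-05, 1e-06 and 1.1e-05). SOX11 (1.76 ± 0.17), RTN1 (1.51 ± 0.12) and SV2A (0.89 ± 0.045) were the 3 called higher (limma treat adjusted p = 0.00051, 0.00027 and 0.00068). With the virus in the HOXB13ko pool 0.00717% of all genes passed treat, 0.0645% had an unadjusted treat p under 0.05 and 0.0502% passed eBayes. Of the 51 neuronal genes 0, 0 and 1 did so in that order, with a median of -0.025. That gene was SYT4, a synaptotagmin named here after its value was seen (0.34 ± 0.055, limma eBayes adjusted p = 0.046). In HOXB13ko-LV-MEIS1 against LV-MEIS1 13 were called higher and 2 lower (3.29% and 3.42% of all genes), led by SOX11 (2.83 ± 0.17), NMNAT2 (2.31 ± 0.16) and KIF5C, a neuronal kinesin (2.28 ± 0.18) (limma treat adjusted p = 1e-07, 7e-07 and 4.6e-06). SYT5 (-2.62 ± 0.16) and CELF5 (-1.33 ± 0.12) were the 2 called lower (limma treat adjusted p = 2.1e-07 and 0.00028). In the interaction 1 was called higher, SOX2 (1.63 ± 0.21), and 14 lower (1.31% and 1.62% of all genes), the lowest being NMNAT2 (-4.91 ± 0.22), CHRNB2 (-4.39 ± 0.31) and SEZ6 (-4.27 ± 0.27) (limma treat adjusted p = 0.0064, 9.8e-09, 7.3e-07 and 3.1e-07). Of the 30 proneural and neuroendocrine factors on the list 12 were listed, so the genes that HES proteins are best known to repress were covered in part.

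**Figure D4:**
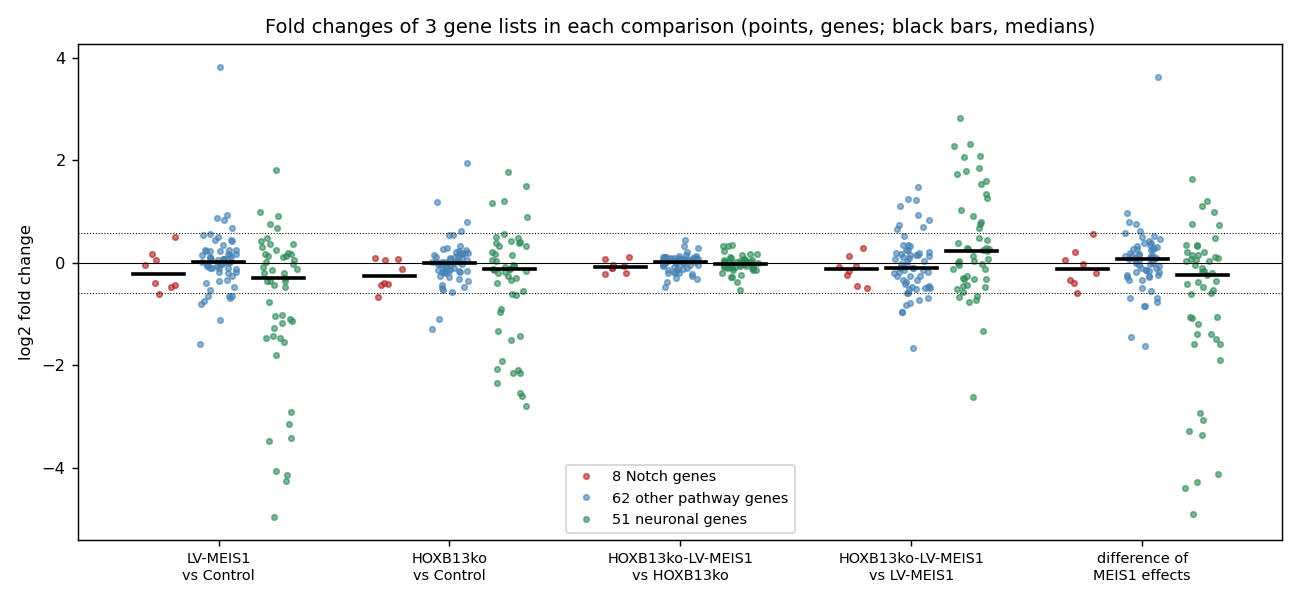
Log2 fold changes (y axis) of the 8 Notch genes, 62 other pathway genes and 51 neuronal genes in 5 comparisons (x axis), with a point per gene, black bars at list medians and dotted lines at 1.5-fold. In LV-MEIS1 against Control the medians were -0.22, 0.019 and -0.29 in that order, and the neuronal list was chosen with earlier results known.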

How the data were processed

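The 12 poly-A RNA libraries of CWR22Rv1 cells (3 per group) were analysed. Per the labels and the study's methods, the authors trimmed reads with Trimmomatic 0.38, estimated transcript abundance with kallisto 0.43.1 against GRCh38.p12, summed it to genes, removed genes with few reads and made the deposited CPM values with edgeR 3.22.2. Kallisto divides reads between transcripts that share sequence. Of 13993 rows, 42 were exact repeats, leaving 13951 genes.

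Whether low values were whole multiples of 1 read was checked. A first search of the step between 0.02 and 0.12 CPM and a second between 0.034 and 0.066 CPM, chosen after the first was seen and with earlier depth figures known, gave the same step in 7 of 12 libraries. In the second, 12.7% to 60.6% of low values lay within 0.1 of a whole multiple, where 20% would with no step. Depth was therefore taken as unknown and no count model was used.

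Log2(CPM + 0.5) values of all 12 libraries entered 1 limma 3.58.1 fit (R 4.3.3) with 4 group means and a mean-variance trend. Treat against 1.5-fold with Benjamini-Hochberg adjustment was the main test, and eBayes an alternative. Tested on simulated data for LV-MEIS1 against Control (13951 genes, 200 changed), treat recovered 61% of 2-fold and 98.5% of 4-fold changes and called 0 unchanged genes. Unchanged genes were simulated with no difference at all, well inside the 1.5-fold limit. Changes smaller than 2-fold were not simulated, so recovery of those was not tested.

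All 10 Notch genes were to be named. Of the other lists, called genes averaging 1 CPM or more were named, at most the 3 highest and 3 lowest per comparison, and genes most alike a called Notch gene, of which there were none. The genes and lists were chosen with earlier results of these data known. Positions and lengths came from GENCODE v44 (GRCh38) and promoters from RefSeq. Same-numbered libraries of different groups had deviations correlated from -0.21 to 0.15 (18 pairs), so numbers were not taken as pairs. The result of 1 luminal marker, and sums and call counts that include it, are not reported here.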

Additional observations from a re-analysis of the deposited data

Results flagged for a closer look

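The difference of LV-MEIS1 from Control was unlike that of HOXB13ko-LV-MEIS1 from HOXB13ko for 5 Notch genes. This was by limma's eBayes test of the interaction (Benjamini-Hochberg adjusted p over all genes), where 34.2% of all genes passed. NOTCH2 differed by 0.57 ± 0.13 (log2, SE; limma eBayes adjusted p = 0.0043) and NOTCH1 by -0.40 ± 0.10 (0.0093). JAG2 differed by -0.33 ± 0.11 (limma eBayes adjusted p = 0.029), HES6 by -0.59 ± 0.20 (0.031) and RBPJ by 0.21 ± 0.079 (0.048). With the replicate block the adjusted p of HES6 was 0.053 and that of RBPJ 0.085, and none of the 5 passed limma's treat test.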

How the results depend on the processing

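By limma's treat test 0 of the 8 Notch genes were called in each of the 5 comparisons under every scaling, pseudocount, filter and left-out library tried. Counts are given for LV-MEIS1 against Control, then the HOXB13ko label without the virus, the virus within the HOXB13ko pool, the HOXB13ko label with the virus, and the interaction. With eBayes against no change, 6207, 4590, 7, 6993 and 4771 genes passed in place of 557, 197, 1, 936 and 409, as did 6, 4, 0, 4 and 5 Notch genes and 36, 33, 1, 38 and 32 neuronal genes. With eBayes and an estimated fold over 1.5, 1636, 806, 5, 2239 and 1858 genes passed. There was 1 Notch gene each for LV-MEIS1 against Control, the HOXB13ko label without the virus and the interaction. In the last pair of comparisons 23 and 25 neuronal genes passed. At an adjusted p of 0.01 the interaction called 272 genes. In HOXB13ko-LV-MEIS1 against HOXB13ko, 2 genes were called with a pseudocount of 0.1, with the replicate block or with only the libraries compared. Without 1 library the counts ran from 471 to 556, 146 to 194, 1 to 2, 837 to 954 and 333 to 392. The replicate block changed no other count by over 1.5 times, and in eBayes the HES6 and RBPJ interactions lost their call with it. The interaction call was also lost for JAG2 with equal sums (0.0503) and for RBPJ with median of ratios scaling (eBayes adjusted p = 0.058). Small fold changes turned sign. HES1 did in the interaction with equal sums (0.0084) and without Control replicate 3 or HOXB13ko-LV-MEIS1 replicate 2 (range without 1 library -0.093 to 0.0065), and in LV-MEIS1 against Control without Control replicate 1 (-0.016 to 0.080). NOTCH3 did in LV-MEIS1 against Control without Control replicate 2 (-0.11 to 0.020) and in the interaction without Control replicate 3 or HOXB13ko replicate 1 (-0.0039 to 0.15). HES6 did in HOXB13ko-LV-MEIS1 against LV-MEIS1 with quantile normalization (0.055) or without LV-MEIS1 replicate 1 (-0.18 to 0.0061). The causes were not tested. Of 19 eBayes calls of Notch genes, 11 held without any 1 library and 8 did not.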
